A study of Homo sapiens with 6 samples.

Results

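RUVBL1 and RUVBL2 are a pair of related AAA+ ATPases that form the hexameric core of several larger assemblies. The genes described here encode those 2 ATPases and the other subunits of the chromatin remodelers INO80, SRCAP and TIP60 and of the co-chaperone R2TP. There are 35 such genes among 20033 protein-coding genes of the annotation (GENCODE v44, human build hg38), and they were taken from a list of subunit names, a rule that holds no measured value. For each gene, the accessible regions were recorded at the promoter, which is any position within 1000 bp of an annotated transcription start site (TSS), and in a window holding the gene body with 50 kb on each side.

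Open chromatin was profiled by Omni-ATAC, in which the Tn5 transposase cuts and tags accessible DNA, in MM.1S, an established human multiple myeloma cell line. Cells received CB-6644, an inhibitor of the RUVBL1/2 ATPases, at 120 nM for 72 h, and control cells received the solvent DMSO. Cells that stained as live were sorted by flow cytometry from both groups before the assay, so cells that had died under the inhibitor were not measured. Each group had 3 libraries of the same line (n = 3 in every comparison), and nothing in the labels says that the replicates came from separate cultures, so a p-value measures the spread between these libraries, which may be technical.

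INO80 slides nucleosomes and acts on nucleosomes that hold the histone variant H2A.Z, SRCAP deposits H2A.Z, and TIP60 joins H2A.Z exchange by EP400 with histone acetylation by KAT5. R2TP works with HSP90 to assemble RNA polymerases, small nucleolar ribonucleoproteins and kinases of the PIKK family. The comparison asks whether chromatin at the genes for the inhibited ATPases and their partner subunits differed after inhibition. Transcription was not measured in these libraries, so an open promoter gives no level of its transcript.

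The values come from peak lists called in each library, and the lists held 58563 to 79020 peaks on the main chromosomes. They give no read counts. The lowest background signal recovered at any peak of a list, divided by the length of its shortest peak, served as a stand-in for depth. It ran from 3.20 to 9.08 tags per kb. The values were 5.67, 3.20 and 7.05 in the CB-6644 libraries and 6.40, 9.08 and 8.09 in the DMSO libraries. CB-6644 replicate 2 and DMSO replicate 1 stood apart from the other 4 libraries, with shortest peaks of 65 and 91 bp against 131 to 152 bp. These 2 are called short-fragment libraries below, and the other 4 long-fragment libraries. The names rest on the shortest peaks alone, as fragment lengths are not given in the sources used here. The main promoter differences are accompanied by their value in these 4. All 9 plasma cell marker genes tested, among them IRF4, XBP1 and TNFRSF17, had a promoter peak in all 6 libraries, whereas 5 of 14 markers of other cells (MS4A1, CD3E, CD3D, LYZ and CSF1R) had none in any library and 6 of 14 had one in all 6.

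The promoter sequences of the 2 ATPases and of the 3 subunits with the largest promoter differences between the groups are shown first. They are read 5′ to 3′ on the strand of the gene, end at the base before a RefSeq start (build GRCh38.p14), and leave out bases annotated as untranslated. Capitals mark matches, on either strand, to CCAAT (the NF-Y box), GGGCGG (the SP box) or CCGGAAG (an ETS site). RUVBL1 is taken from chr3:128123813-128124062 (minus strand), RUVBL2 from chr19:48993311-48993447 (plus strand), RPAP3 from chr12:47706031-47706280 (minus strand), EP400 from chr12:131949692-131949941 (plus strand) and MEAF6 from chr1:37514767-37515016 (minus strand).
RUVBL1: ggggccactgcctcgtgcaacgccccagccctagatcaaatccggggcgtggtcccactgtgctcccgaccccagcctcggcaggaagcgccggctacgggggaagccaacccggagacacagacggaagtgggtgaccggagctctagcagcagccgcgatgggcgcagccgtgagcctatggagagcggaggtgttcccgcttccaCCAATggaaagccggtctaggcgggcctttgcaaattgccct
RUVBL2: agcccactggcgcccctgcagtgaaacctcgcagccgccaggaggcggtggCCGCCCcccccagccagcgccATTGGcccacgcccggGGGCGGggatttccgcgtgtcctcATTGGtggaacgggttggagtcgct
RPAP3: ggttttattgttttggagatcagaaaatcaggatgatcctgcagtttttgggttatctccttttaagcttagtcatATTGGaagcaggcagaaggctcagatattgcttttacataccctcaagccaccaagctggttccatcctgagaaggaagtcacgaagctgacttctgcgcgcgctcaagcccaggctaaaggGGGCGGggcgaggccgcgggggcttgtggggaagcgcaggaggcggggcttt
EP400: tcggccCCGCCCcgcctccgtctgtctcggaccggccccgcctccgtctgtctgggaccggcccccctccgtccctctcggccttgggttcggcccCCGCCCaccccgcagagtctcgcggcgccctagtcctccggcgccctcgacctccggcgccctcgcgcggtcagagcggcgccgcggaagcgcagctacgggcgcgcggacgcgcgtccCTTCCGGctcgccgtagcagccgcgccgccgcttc
MEAF6: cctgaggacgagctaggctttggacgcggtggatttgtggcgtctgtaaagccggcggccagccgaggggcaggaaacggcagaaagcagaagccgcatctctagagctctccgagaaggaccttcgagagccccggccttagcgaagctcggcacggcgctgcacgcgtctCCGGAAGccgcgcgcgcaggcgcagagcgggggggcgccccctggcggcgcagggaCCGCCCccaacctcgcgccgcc

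RUVBL1 and RUVBL2 each held CCAAT within 100 bp of the strongest summit of their promoter peak. Of the 34 members with a promoter peak in every library, 9 held CCAAT there (26.5%, against 30.3% of 13263 promoters scanned the same way), 18 held GGGCGG (52.9% against 67.6%) and 7 held CCGGAAG (20.6% against 16.2%). The 7 were INO80E, MCRS1, ACTR6, DMAP1, EP400, KAT5 and MEAF6. AAGATGGC, the letters bound by YY1, itself a member, stood at the promoters of INO80, ACTR8 and KAT5 (8.82% against 3.46%). CACGTG, the E-box of MYC, stood only at EPC1 (2.94% against 8.20%), and GGCGGGAA, an E2F site, at ACTL6A and PIH1D1 (5.88% against 3.65%). GCGCATGC (NRF1), TGACGTCA (CRE), TGATGNAA (ATF4 with CEBP) and the IRF element were found at no member, and at 4.0%, 2.83%, 0.875% and 2.13% of all promoters. The median G and C content of the members' 201 bp summit windows was 67.4%, with a range of 47.8% at MORF4L2 to 81.1% at NFRKB, beside 68.7% over all promoters.

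Chromatin at the start of nearly every member was open in both groups. A promoter peak was present in all 6 libraries at 34 of 35 members (97.1%), against 66.2% of all protein-coding genes. The exception was MRGBP (ENSG00000101189.7, chr20:62796473-62801729, plus strand), a small subunit of TIP60. MRGBP had a weak peak at its TSS in CB-6644 replicates 2 and 3 and DMSO replicate 1, with −log10 p of 17.3, 17.4 and 13.8, and none in the other 3 libraries, so presence did not separate the groups. A strong peak lay further upstream of MRGBP in all 6 libraries, with its summit 2092 to 2187 bp before the TSS. It ranked between the 93.8th and the 96.8th percentile of all peaks in its list.

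To compare promoters without scaling the libraries to each other, each gene received a promoter rank. This is the percentile rank of the −log10 p of its strongest promoter peak among the 13263 genes with a promoter peak in all 6 libraries, where 100 is the strongest. A difference between groups was called where all 3 ranks of one group lay above all 3 of the other, which is the smallest two-sided p of 0.1 that an exact permutation test of 3 against 3 libraries allows, so no single gene could reach 0.05. Of the 34 members ranked, 2 were called higher after CB-6644, MEAF6 and EP400 (5.88%, against 6.43% of all genes), and 2 were called lower, RPAP3 and UCHL5 (5.88%, against 7.79%). Leaving out a library makes the call easier to reach for every gene. The count of members called higher was 4 if CB-6644 replicate 2 was left out, 4 if CB-6644 replicate 3 was, and 6 if DMSO replicate 3 was, beside 12.0%, 11.2% and 10.1% of all genes. The count called lower was 4 if CB-6644 replicate 1 or DMSO replicate 1 was left out, beside 12.9% and 14.9% of all genes.

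**Figure D1:**
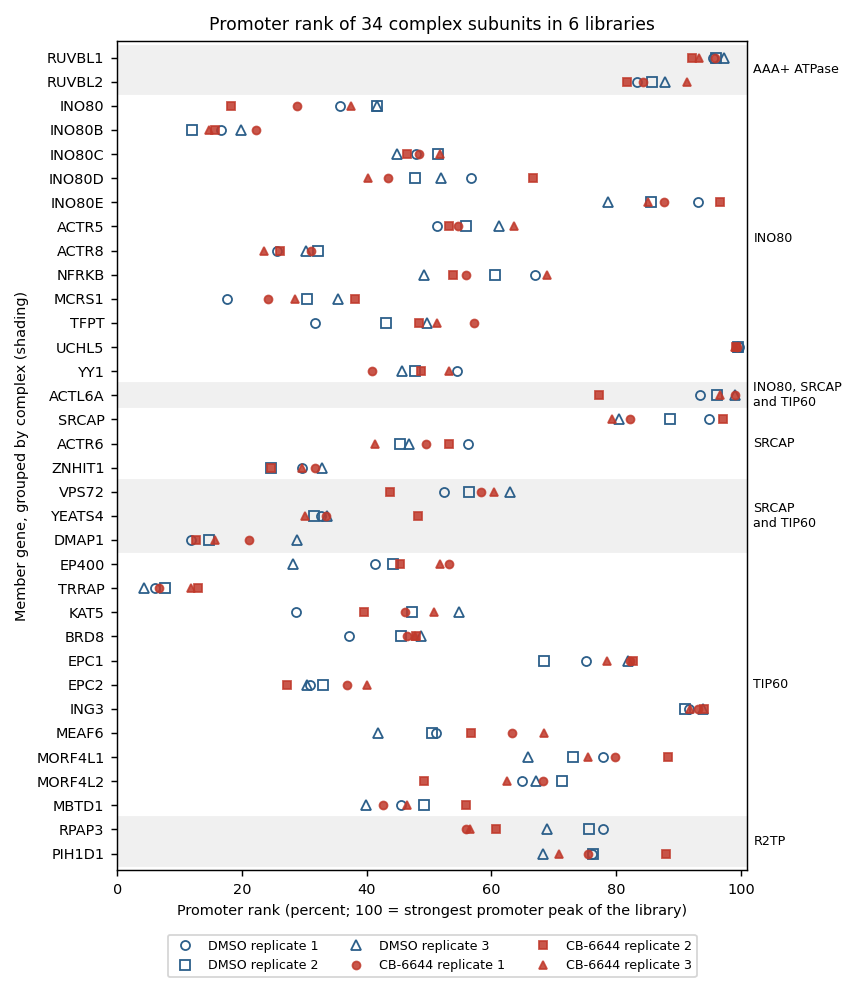
Promoter rank (percent, horizontal axis; 100 is the strongest promoter peak of a library) of the 34 members with a promoter peak in all libraries, in order of complex, with 1 point per library, filled for CB-6644 and open for DMSO. The filled and open points separate at MEAF6, EP400, RPAP3 and, within a very narrow range, UCHL5, and mix at the other genes.

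RUVBL1 (ENSG00000175792.12, chr3:128064778-128153914, minus strand) had one of the stronger promoters of the cell. Its promoter ranks were 95.9, 92.1 and 93.2 after CB-6644 and 95.5, 96.0 and 97.3 with DMSO. The CB-6644 ranks were low or level with the controls and the groups overlapped at CB-6644 replicate 1. The mean was 93.7 ± 1.94 (SD, n = 3) against 96.3 ± 0.941, a difference of −2.53 points (exact permutation p = 0.2), and −2.10 within the long-fragment libraries. By log2 fold centred on the library median the groups overlapped, with a difference of 0.02. The peak at the start was 341 to 572 bp wide, stood 30.6-fold to 44.1-fold over background, and had its summit 73 bp before the TSS of the canonical transcript (128123812) in 5 of 6 libraries. If CB-6644 replicate 1 or DMSO replicate 1 was left out, or within the 4 long-fragment libraries, the groups no longer overlapped, with the CB-6644 ranks lower. In these settings 12.9%, 14.9% and 22.6% of all genes were called lower. CB-6644 replicate 1 (95.9) and DMSO replicate 2 (96.0) lay close together.

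RUVBL2 (ENSG00000183207.15, chr19:48993562-49015970, plus strand) showed no such order. Its promoter ranks were 84.3, 81.7 and 91.3 after CB-6644 and 83.4, 85.7 and 87.8 with DMSO, so that the highest and the lowest of the 6 values were both from treated cells. The means were 85.8 ± 4.96 and 85.6 ± 2.22 (difference 0.134, exact permutation p = 1; 1.03 within the long-fragment libraries). In every library the summit lay 437 bp before the canonical TSS, between that TSS and GYS1, a glycogen synthase gene that starts on the opposite strand within 1000 bp. A difference at this peak could not be assigned to RUVBL2 or GYS1.

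Inside the RUVBL1 gene, 2 intronic regions ranked higher after CB-6644 without overlap between the groups, as 13.3% of all regions called in every library did. The window of RUVBL1 held 6 accessible regions, and all 6 were called in every library. An intronic region, chr3:128114138-128114821, with its summit 9178 to 9228 bp downstream of the canonical TSS, had region ranks (the same percentile rank, among the 42089 regions called in all 6 libraries) of 66.1, 73.9 and 64.3 after CB-6644 and 46.3, 40.4 and 50.1 with DMSO. Every treated library lay above every control, by 22.5 points in the means. Its −log10 p was itself higher in treated libraries, at 90.7, 82.5 and 103 against 74.3, 77.4 and 83.1, although CB-6644 replicate 2 was just under DMSO replicate 3. The fold over background at this region was 24.6, 31.7 and 23.8 after CB-6644 and 24.8, 19.9 and 19.4 with DMSO, and within the long-fragment libraries both treated values exceeded both controls.

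The 201 bp around the summit of this RUVBL1 region are shown because it was the region of the 2 ATPase genes with the largest rank difference. They span chr3:128114534-128114734 and are printed on the plus strand of hg38. None of the 9 motifs spelled out above had a match in them.
RUVBL1-intron: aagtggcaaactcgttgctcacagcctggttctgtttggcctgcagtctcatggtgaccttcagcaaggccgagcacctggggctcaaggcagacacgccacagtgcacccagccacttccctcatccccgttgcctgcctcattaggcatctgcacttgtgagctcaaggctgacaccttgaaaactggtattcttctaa

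A second intronic region of RUVBL1, chr3:128095224-128095549, had region ranks of 77.0, 82.3 and 78.0 after CB-6644 and 69.3, 64.7 and 65.3 with DMSO, a difference of 12.7 points with no overlap. Here the call rested on the −log10 p, and the rank of the fold over background differed by 0.237 points only. At the start of the longest RUVBL1 transcripts, chr3:128153036-128153995, where the peak also covers EEFSEC, the region ranks of 76.4, 59.3 and 73.2 against 75.8, 79.6 and 82.7 overlapped. The window of RUVBL2 held 10 regions, of which 6 were called in all libraries and the only one called different was at FTL, the ferritin light chain gene (82.3, 89.0 and 82.3 against 82.0, 79.8 and 81.5; 3.42 points).

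The largest difference in promoter rank among the members was at RPAP3 (ENSG00000005175.10, chr12:47661249-47706030, minus strand), the subunit of R2TP that recruits HSP90. Its promoter ranks were 55.9, 60.7 and 56.6 after CB-6644 and 77.8, 75.7 and 68.9 with DMSO. All treated libraries were low and the groups were far from overlapping. The mean of 57.7 ± 2.58 was 16.4 points under that of 74.1 ± 4.68 (exact permutation p = 0.1, the smallest possible), and the long-fragment libraries gave −16.0. The −log10 p was 157, 128 and 210 against 322, 346 and 256, and the summit was 2 to 18 bp from the canonical TSS in every library. RPAP3 was called lower under each of the 14 alternative settings tried for promoter ranks, including those based on fold. Settings that drop or pair libraries could hardly undo a call made without overlap. By the rank of fold the difference was −9.28 points, without overlap but smaller in size than at MEAF6 (9.93) and EP400 (9.98). RPAP3-DT, a non-coding transcript on the opposite strand, starts at the same peak.

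PIH1D1, the other R2TP member and its client adaptor, had ranks of 75.4, 87.9 and 70.8 after CB-6644 and 76.1, 76.2 and 68.3 with DMSO, which overlapped. The difference was 4.50 points. CB-6644 replicate 2, a short-fragment library, was the high value, and the long-fragment libraries differed by 0.850 points. The ranked PIH1D1 peak had its summit 1650 to 1717 bp before the canonical TSS, in a region that also overlaps ALDH16A1. A separate region covered the canonical TSS.

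TIP60 held both promoters called higher. MEAF6 (ENSG00000163875.16, chr1:37489993-37514766, minus strand), a histone acetyltransferase accessory subunit, had ranks of 63.3, 56.7 and 68.4 after CB-6644 and 51.1, 50.5 and 41.7 with DMSO. The 3 treated libraries were all higher, with means of 62.8 ± 5.83 and 47.8 ± 5.26 and a difference of 15.0 points (exact permutation p = 0.1), or 19.7 within the long-fragment libraries. EP400 (ENSG00000183495.15, chr12:131949942-132080460, plus strand), the ATPase that carries out H2A.Z exchange in TIP60, had ranks of 53.1, 45.3 and 51.8 after CB-6644 and 41.4, 44.3 and 28.2 with DMSO. The groups were apart by about 1 point at their nearest values, CB-6644 replicate 2 and DMSO replicate 2, and the difference of the means was 12.1 points (exact permutation p = 0.1), or 16.2 in the long-fragment libraries. When genes were ranked by fold instead, the values of both genes kept their sign but the groups overlapped, at 9.93 points for MEAF6 and 9.98 points for EP400.

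Counting MEAF6 and EP400, the mean rank was higher after CB-6644 at 10 of the 11 ranked genes listed here under TIP60 alone. It was higher at 49.2% of all genes. The median difference was 3.61 points, against −0.0892 points over all genes. The groups overlapped at the other 9. In the long-fragment libraries the mean was higher at 6 of the 11, beside 49.7% of all genes. BRD8, ING3, MBTD1 and KAT5 were those that were higher over all libraries and not in the long-fragment ones. Among these, MORF4L1, a chromodomain subunit, differed by 9.02 points and MORF4L2, its paralog, by −7.76 points. KAT5, the acetyltransferase of TIP60, had ranks of 46.1, 39.5 and 50.8 against 28.6, 47.2 and 54.7, a difference of 1.93 points within a wide spread of the controls, and of −2.54 points in the long-fragment libraries. TRRAP, the large scaffold subunit, had the weakest promoter peak of the ranked members, with ranks of 6.76, 13.0 and 11.9 against 6.11, 7.69 and 4.30.

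UCHL5 (ENSG00000116750.14, chr1:193012250-193060080, minus strand), a deubiquitinase found in INO80 and at the proteasome, had the strongest. Its ranks were 99.3, 99.3 and 99.0 after CB-6644 and 99.6, 99.6 and 99.5 with DMSO, which did not overlap but differed by only −0.362 points (exact permutation p = 0.1). This direction was not stable. By the rank of fold it was 12.1 points higher after CB-6644, with overlap. RO60, an RNA-binding protein gene, starts on the opposite strand within 1000 bp of UCHL5.

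The other INO80 promoters overlapped between the groups, with differences from −11.5 to 10.8 points and a median, UCHL5 included, of 0.720 points. The lowest was INO80 itself, the ATPase of the complex, with ranks of 28.8, 18.2 and 37.4 after CB-6644 and 35.7, 41.6 and 41.7 with DMSO. CB-6644 replicate 3 lay among the controls and CB-6644 replicate 2, the short-fragment library, was the low value (exact permutation p = 0.2). The groups did not overlap, with CB-6644 lower, in the long-fragment libraries (−8.55 points), without CB-6644 replicate 3, without DMSO replicate 1, by fold, by log2 fold centred on the library median and by percentile among all peaks, and each CB-6644 library was lower than the DMSO library of its number. The highest was TFPT, with ranks of 57.2, 48.4 and 51.3 against 31.8, 43.1 and 49.6 (exact permutation p = 0.2). Its groups did not overlap in the long-fragment libraries (7.87 points), where 20.4% of all genes were called higher. TFPT shares its promoter with the splicing factor gene PRPF31.

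The 3 SRCAP genes had lower mean ranks after CB-6644 by small amounts, −1.73 points at SRCAP, −1.38 at ACTR6 and −0.309 at ZNHIT1, and each overlapped widely between the groups. ZNHIT1 was 1.97 points higher in the long-fragment libraries. The genes shared by SRCAP and TIP60, VPS72, YEATS4 and DMAP1, differed by −3.12, 4.70 and −2.02 points, with −0.75 points at YEATS4 in the long-fragment libraries. ACTL6A, the actin-related subunit in all 3 remodelers, had ranks of 99.0, 77.2 and 96.6 after CB-6644 and 93.4, 96.2 and 99.0 with DMSO. The low value of CB-6644 replicate 2 alone gave the mean difference of −5.28 points, which was 0.192 points in the long-fragment libraries.

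MCRS1, an INO80 subunit with 2.52 points over all libraries, was called lower in the long-fragment ones (−6.50 points), as 22.6% of all genes were. Over all 34 members the difference ran from −16.4 to 15.0 points with a median of 0.774, and 25 of them lay within 5 points of 0 (64.0% of all genes did). The median size of the difference, without its sign, was 2.83 points in the members and 3.47 points in all genes. Of the members, 15 have a gene on the opposite strand starting within 1000 bp of their canonical TSS, among them MCRS1 with PRPF40B, BRD8 with KIF20A, MBTD1 with UTP18, ZNHIT1 with PLOD3 and INO80E with HIRIP3, and a promoter peak there serves both.

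**Figure D2:**
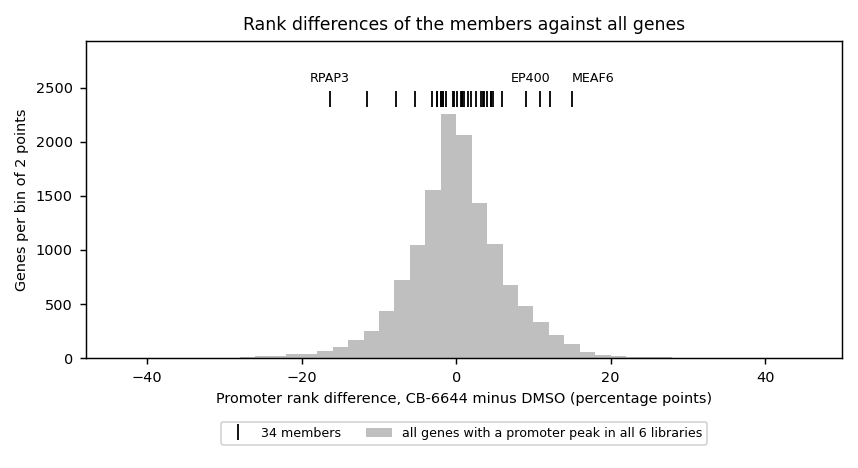
Difference in mean promoter rank, CB-6644 minus DMSO (percentage points, horizontal axis), for all genes with a promoter peak in all 6 libraries (gray, genes per bin of 2 points) and for the 34 members (black ticks). The members lie within the wider range of all genes, with RPAP3 at −16.4, EP400 at 12.1 and MEAF6 at 15.0.

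ACTR6, the actin-related subunit of SRCAP, differed in which of a pair of neighboring peaks was the stronger, although its promoter rank did not separate the groups. An upstream peak had its summit 762 to 776 bp before the canonical TSS (chr12, 100200815) and a start peak 61 to 87 bp before it. These names refer to the canonical TSS only. The region of the upstream peak also covers another annotated ACTR6 start and overlaps ENSG00000290576 and ENSG00000257489. The start peak was the stronger in all 3 CB-6644 libraries and the upstream peak in all 3 DMSO libraries. The ratio of the fold at the upstream peak to the fold at the start peak was 0.811, 0.848 and 0.811 after CB-6644 and 1.10, 1.11 and 1.04 with DMSO. Such a ratio is taken within a library, and the groups did not overlap, also without the short-fragment libraries. The region that holds the upstream peak ranked 8.97 points lower after CB-6644 among shared regions, without overlap. ACTR6 was chosen for this description after its values were seen. It was the only one of 34 members (2.94%) whose strongest promoter summit moved by at least 500 bp without overlap between the groups, which 46 of 13263 genes did (0.347%).

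**Figure D3:**
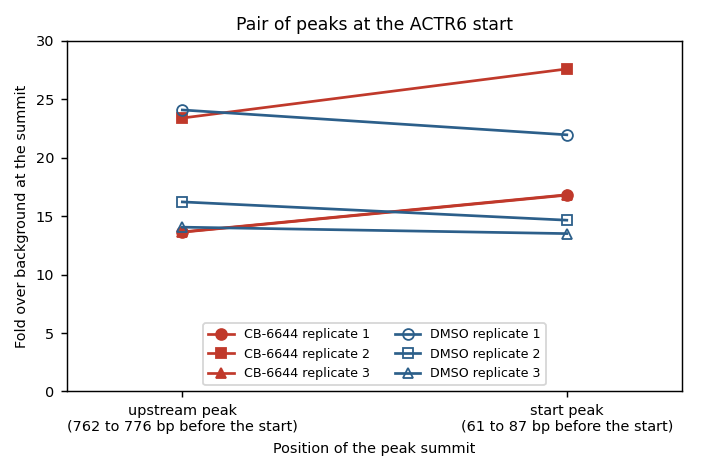
Fold over background (vertical axis) at the summits of the upstream peak and the start peak of ACTR6, 1 line per library. The lines of the 3 CB-6644 libraries rise from the upstream to the start peak and those of the 3 DMSO libraries fall.

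Regions around the members were mostly shared by the groups. After peaks that overlapped by at least 1 bp in any library were merged, the 35 windows held 270 regions, from 2 at DMAP1 to 15 at PIH1D1. Of these, 176 (65.2%) were called in all 6 libraries, against 47.2% of all 89196 merged regions. A region called in all 3 libraries of one group and in none of the other is called group-only here. The windows held 5 DMSO-only regions (1.85%, against 4.5% of all regions) and 2 CB-6644-only regions (0.741%, against 0.586%). The windows are rich in promoters, which make up 51.5% of their regions against 21.7% of all. Of the 131 regions of the windows away from promoters, 4 were DMSO-only, where 5.38% of all such regions were. Without CB-6644 replicate 2 the windows held 9 DMSO-only regions (6.18% of all regions were), and without CB-6644 replicate 3 they held 4 CB-6644-only regions (1.0% of all). A DMSO-only region lay in the window of 5 members (14.3%, against 19.8% of all genes) and a CB-6644-only region in that of 2 (5.71%, against 4.29%).

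**Figure D4:**
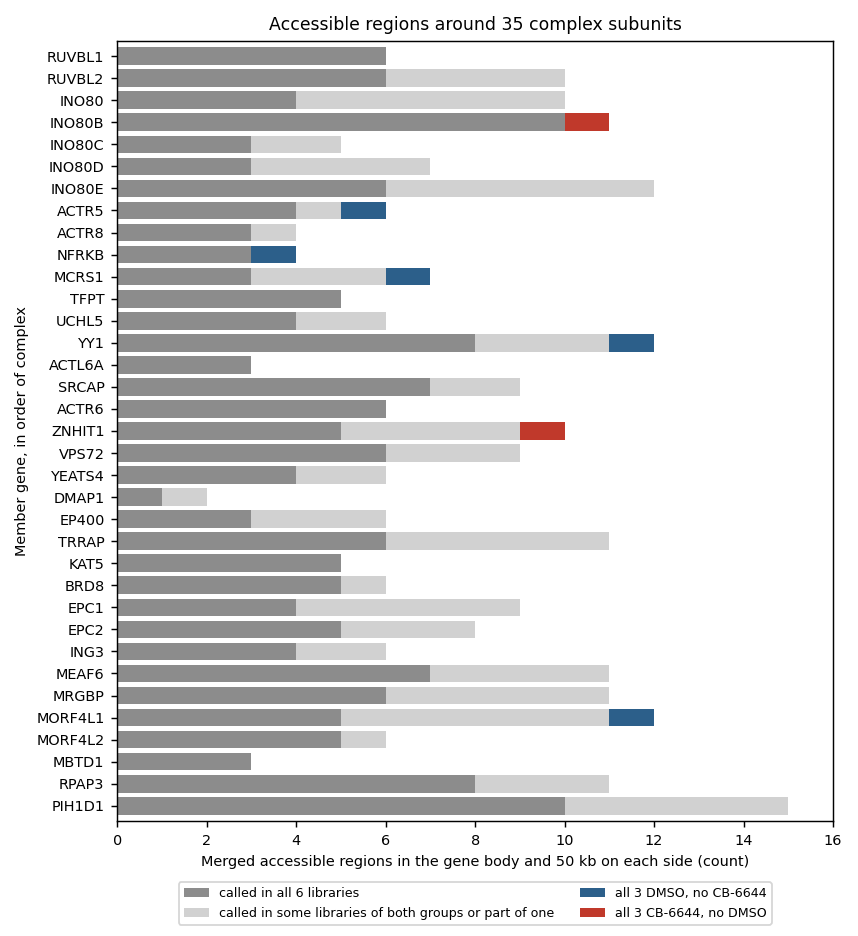
Number of merged accessible regions (horizontal axis) in the gene body and 50 kb on each side of the 35 members, split by the libraries in which they were called. Regions called in all 6 libraries form the largest share at most members, and group-only regions are seen at ACTR5, NFRKB, MCRS1, YY1 and MORF4L1 (DMSO-only) and at INO80B and ZNHIT1 (CB-6644-only).

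YY1 (ENSG00000100811.15), the DNA-binding transcription factor of INO80, had promoter ranks of 40.9, 48.7 and 53.2 after CB-6644 and 54.4, 47.8 and 45.6 with DMSO. These overlapped, although YY1 was called lower when genes were ranked by fold, as 6.95% of all genes were. In MORF4L1 (ENSG00000185787.15) the DMSO-only region chr15:78838323-78838706 lay in an intron 34184 bp from the canonical TSS. It was weak, at the 25.8th, 10.4th and 1.81st percentile of the DMSO lists, so that DMSO replicate 3 barely held it. The 5 group-only regions given next lay in flanking genes. The DMSO-only region in the window of NFRKB, chr11:129815727-129816061, covered the start of TMEM45B. That of MCRS1, chr12:49548935-49549385, covered an exon of KCNH3, and that of ACTR5, chr20:38807018-38807407, an intron of PPP1R16B. These 3 were at the 2.73rd to 21.2nd percentile of the DMSO lists, near the weaker end.

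The CB-6644-only region in the window of INO80B, chr2:74406038-74406211, lay in an intron of ENSG00000159239, at the 31.4th, 16.4th and 33.6th percentile. That of ZNHIT1, chr7:101172108-101172268, lay over an exon of NAT16, at the 6.66th, 39.3rd and 17.1st percentile. They were 174 and 161 bp wide. The promoter ranks of the 5 members with a group-only region in flanking DNA overlapped between the groups.

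Among the 176 regions shared by all libraries, 23 ranked higher after CB-6644 without overlap (13.1%, against 13.3% of all shared regions) and 14 ranked lower (7.95%, against 13.4%). The largest was in the window of MEAF6, chr1:37477183-37477595, at ZC3H12A, an RNase of the inflammatory response, with region ranks of 40.9, 43.6 and 39.3 after CB-6644 and 16.8, 13.7 and 9.75 with DMSO. All treated libraries were higher, by 27.9 points. The lowest was in an intron of EPC2, a TIP60 scaffold subunit, chr2:148726042-148726596, with 48.7, 21.7 and 46.2 after CB-6644 and 55.5, 62.9 and 62.1 with DMSO. There CB-6644 replicate 2, a short-fragment library, gave much of the mean difference of −21.3 points, but the groups did not overlap without it either.

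Per library, the 35 windows held 212, 301 and 206 peaks after CB-6644 and 264, 232 and 212 with DMSO. The high counts were those of the short-fragment libraries. The means were 239.7 ± 53.2 and 236.0 ± 26.2, and the long-fragment libraries differed by −13 peaks. As a share of the whole list, the windows took 0.376% ± 0.0376 after CB-6644 and 0.328% ± 0.00556 with DMSO. Within each fragment class the lists of the treated libraries were shorter and their recovered background was lower. In the long-fragment libraries scaled to an equal background, the windows held 4 DMSO-only and 4 CB-6644-only regions of 192, beside 6.22% and 4.57% of all regions.

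Genes related to these complexes but not on the list of members were examined in the same way. Unlike those of the members, their promoter calls all went in the same direction. All 36 (prefoldin-like partners of R2TP, snoRNP assembly factors, the TTT complex and PIKKs, HSP90, H2A.Z and its chaperones, and actin) had a promoter peak in every library, 4 were called higher after CB-6644 and 0 lower, beside 6.43% and 7.79% of all genes, with no call adjusted for the number of genes. H2AZ1, which encodes H2A.Z, had ranks of 84.8, 85.4 and 83.7 against 82.3, 68.7 and 66.7, a difference of 12.0 points in which DMSO replicate 1 lay close to the treated libraries. SNU13, a box C/D protein, differed by 8.76 points, NUFIP1, a factor of box C/D assembly, by 8.37 and GPN3, a GTPase of RNA polymerase assembly, by 6.65. Their windows held 295 regions, with 7 DMSO-only and 3 CB-6644-only, beside 4.5% and 0.586% of all regions.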

How the data were processed

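Omni-ATAC was performed on 3 CB-6644 and 3 DMSO libraries of MM.1S cells. Per the labels and the study's methods, the authors aligned reads with Bowtie2 2.4.2 to hg38 and called peaks with MACS3 3.0. The settings of the caller are not given in the sources used here. Peaks were called per library, and the deposited lists give for each peak a score, a fold enrichment over the local background (a ratio) and the −log10 p-value and −log10 q-value at the summit. The lowest −log10 q was 3.01 to 3.33. The lists hold no read counts, so the depth is unknown and the edgeR test of the study on counts could not be run. A background was recovered from fold and p of each peak, under the Poisson model of the caller. This model gave back the −log10 p of 100% of peaks to within 0.1%. The lowest background of a list, divided by the length of its shortest peak, gave the tags per kb.

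Peaks on the main chromosomes were kept. Promoter and region ranks used the −log10 p, which grows with depth, and fold was an alternative measure. Ranks were compared by exact permutation tests over all genes with a promoter peak in every library, and group-only regions were counted without a test. Libraries were divided into the short-fragment and long-fragment sets at the largest gap in the length of the shortest peak. No fragment length was measured. The replicate numbers were not used as pairs in the main comparisons, only in an alternative that compares libraries of the same number. Motifs were searched on both strands, with overlaps allowed, within 100 bp of the strongest promoter summit. RefSeq promoter sequences were found for 29 of 35 members. No peak ran past a chromosome end of hg38. The details of 1 group-only region are not reported here.

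The ATPases, members with a call, a group-only region or a missing promoter peak, and the members of highest and lowest rank were named in full, and others by range. The rule for the members uses names alone, but this set of genes and the other lists were chosen with earlier results of these data known. The steps were tested on simulated data. The software was Python 3.11.15 with pandas 2.3.3, scipy 1.17.1, matplotlib 3.10.9 and numpy 2.4.6.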

Additional observations from a re-analysis of the deposited data

How the results depend on the processing

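RPAP3 was called lower after CB-6644 in all 14 alternatives tried for promoter ranks. Of these, the settings that drop or pair libraries could hardly undo a call made without overlap. MRGBP was the lone member without a promoter peak in every library in 11 of 13 alternatives, the exceptions being the 20000 strongest peaks (29 members open) and the 2500 bp promoter (35 open). The rank of UCHL5 reversed by fold (12.1 points) and by log2 fold centred on the library median (0.18). RUVBL1 had groups that did not overlap by percentile among all peaks (−0.561), where 17.0% of all genes were called lower. They also did not overlap in the long-fragment libraries (−2.07, genes ranked again among those open in these 4), where 22.6% were. RUVBL1 gave −0.435 by fold and 0.02, on the log2 scale, by centred log2 fold, with overlap. Its difference ran from −3.59 to −1.70 over the fits that left out 1 library. EP400 and MEAF6 overlapped by fold and by centred log2 fold, and EP400 also by percentile among all peaks.

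Region counts in the windows are followed by the share of all regions in brackets. DMSO-only regions numbered 2 of 244 with equal lists of 58563 peaks (2.46%), 1 of 123 with 20000 peaks (2.79%) and 11 of 248 in the long-fragment libraries (9.21%). They numbered 2 of 379 with 100 bp windows around summits (3.77%) and 9 of 270 with 2 of 3 libraries required (9.05%). There were 2 of 77 in gene bodies (4.5%) and 3 of 180 with 25 kb on each side (4.5%). Without 1 library they numbered 5 to 9 (5.29% to 6.89%). CB-6644-only regions numbered 3 with equal lists (1.41%), above the 2 DMSO-only there, and 1 with 20000 peaks (2.13%). They numbered 4 of 192 in the scaled long-fragment libraries (4.57%), 4 around summits (0.634%) and 4 with 2 of 3 libraries (1.78%). There were 0 in gene bodies (0.586%) and 0 with 25 kb (0.586%). Without 1 library they numbered 2 to 4 (0.739% to 1.18%). Members called higher numbered 5 in the long-fragment libraries (20.4% of all genes), 1 by fold (8.01%) and 2 by percentile among all peaks (1.78%), and 3 to 6 without 1 library. Members called lower numbered 6 in the long-fragment libraries (22.6%), 4 by fold (6.95%), 6 by percentile (17.0%) and 4 by centred log2 fold (7.65%). Without 1 library they numbered 2 to 4 (10.6% to 14.9%). For the intronic RUVBL1 regions the rank of fold, an alternative chosen after seeing the data, gave 24.9 points at the 684 bp region and 0.237 points, with overlap, at the 326 bp region.

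With the replicate block, which takes the 3 differences between libraries of the same number, 5 members were higher in every pair (11.9% of all genes) and 3 lower (13.9%), and a sign-flip test of 3 pairs cannot go under 0.25. Libraries of the same number did not deviate together (correlations −0.505, −0.216 and 0.289). Whether the numbers pair the samples cannot be told from these correlations. The closest pair across groups were the short-fragment libraries (0.586). Depth limits weak regions most: a region absent from a list may lie under its threshold. A rank cannot show a change shared by all promoters.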
